A study of Mus musculus with 12 samples.

Results

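The 38 genes described here encode the core machinery of autophagy (16 genes), lysosomal proteins (20 genes) and the transcription factors Tfeb and Tfe3 (2 genes). They were taken by symbol from a list and matched to the Ensembl gene identifiers of the count files, which hold 56748 genes in all. Every one of the 38 had enough counts to be tested. Bulk RNA-seq was performed on Lin-Sca+Kit+ (LSK) BM cells, a fraction rich in haemopoietic stem and multipotent progenitor cells. All donor cells came from SCLtTA/BCR-ABL double transgenic (DTG, CD45.2) mice, in which a tetracycline-repressed activator under an SCL enhancer drives human BCR::ABL1 in stem and progenitor cells, and they were transplanted as a pool into irradiated B6.SJL (CD45.1) recipients aged 8 to 12 weeks. In the CTRL group tetracycline (TET) was kept in the drinking water, so that the BCR::ABL1 transgene carried by these cells too remained repressed. In the CML 2wk group TET was withdrawn for 2 weeks before the CD45.2+ LSK cells were sorted. Each group held 6 libraries, sorted from recipients, although the labels do not state whether each library is 1 mouse, and p-values therefore measure the spread between libraries.

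Autophagy encloses cytoplasm in a double membrane that is grown from a precursor and then fused with the lysosome. The ULK1 kinase complex starts the process, a lipid kinase complex containing Beclin 1 marks the membrane, and 2 ubiquitin-like conjugation reactions attach proteins of the ATG8 family (LC3 and GABARAP) to it. Receptors such as SQSTM1 (p62) bind cargo to ATG8 proteins. Lysosomes digest the content with acid hydrolases, among them the cathepsin proteases, which need the proton pump (V-ATPase) to keep the lumen acid. TFEB and TFE3 are related bHLH-leucine zipper factors that switch on lysosomal and autophagy genes through E-box sequences (the CLEAR element, with CACGTG at its centre), and mTORC1 on the lysosomal surface holds them in the cytoplasm. In haemopoietic stem cells autophagy is known to remove mitochondria and to keep cells quiescent.

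Between 22804754 and 41832868 reads per CTRL library and between 16150817 and 25070105 per CML 2wk library were counted on genes. The LSK genes Kit (681 to 800.0 CPM in CTRL, 323 to 522 in CML 2wk) and Ly6a (27.2 to 38.3 and 31.4 to 74.1) were present in every library, Cd3e stayed at or below 1.02 CPM, and Ly6g at or below 4.88 CPM. The summed level of 6 granulocyte progenitor genes was 1894 to 2586 CPM in CTRL and 3260.3 to 9024 in CML 2wk, and all 6 of these genes rose. The sum of 12 monocyte and macrophage genes was 149.6 to 182 CPM in CTRL and 324 to 519 in CML 2wk, with 4 of 12 higher and 1 lower, and that of 9 basophil and mast cell genes 108 to 219.9 and 474 to 2752, with 7 of 9 higher. The sum of 10 stem and multipotent progenitor cell genes, Flt3 and Cd48 among them, was 2468 to 2847 and 1418 to 1846 (1 higher and 8 lower). Cd48 was at 83 to 111.6 CPM in CTRL and at 189.7 to 221.4 CPM in CML 2wk. The sums of dendritic (505.6 to 1227 and 92.9 to 861 CPM, 5 of 6 lower), megakaryocyte (276 to 322 and 90.6 to 252 CPM, 5 of 6 lower) and erythroid genes (61.2 to 104.8 and 23.2 to 61.1 CPM, 5 of 7 lower) overlapped between the groups in the first case only, and the B and the T and NK cell lists did not exceed 113 and 190.9 CPM. Neutrophil genes summed to 116.6 to 2431 CPM in CTRL, highest in library 4, and to 85.8 to 388 CPM in CML 2wk. CML 2wk library 2 stood apart, with a summed level of 8 stromal genes of 2755 CPM against 66.2 to 485.7 CPM in the other CML 2wk libraries (library 4 the highest of them) and 103.3 to 138 CPM in CTRL, and with Fn1 at 2005 CPM against at most 188 in the other CML 2wk libraries. It also had the highest basophil and mast cell sum (2752 CPM, at most 1144.7 in the other CML 2wk libraries), with Tpsb2 at 489 against at most 164 CPM, and Ddx3y at 8.64 against at most 1.14 CPM. The mitochondrial share of counts was 0.816% to 1.288% in CTRL and 2.258% to 2.973% in CML 2wk. Labelled sex (male in CTRL, female in CML 2wk) cannot be told apart from the group. The sequenced cells came from donors, pooled from mice of both sexes in the study's methods, so the label need not be that of the cells. Xist was at 3794 to 4425 CPM in CTRL, where 4 Y-linked genes were at or below 0.686 CPM, and at 2183 to 3501.5 CPM in CML 2wk. These levels went against a male label for the CTRL cells, and the Y-linked levels were low for cells from a pool of both sexes too. In CML 2wk libraries other than library 2, Ddx3y was at or below 1.14 CPM. The transgene has no entry in the count files. Fewer cells of a type and less RNA per cell cannot be told apart in bulk samples, and the part of these cell type shifts in the results below was not tested.

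E-box sequences were looked for in RefSeq promoter windows (GRCm38.p6), which run from 250 bases before to 50 bases after each gene start, and 30 of the 38 genes had a window (35 windows). The letters CACGTG, which read alike on both strands, were in 8 of the 35 windows (22.9%) and in 7.15% of all 32851 windows (9.49% of the windows of genes tested). The longer TCACGTGA, which contains CACGTG, was in 3 windows (8.57%; 0.974% of all windows and 1.72% of those of genes tested). The full CLEAR palindrome, which adds a G before and a C after these letters, was in 0 of the 35 (0.326% of all windows, 0.641% of those of genes tested). The 8 genes were Atg3, Atg5, Atg7, Ctsa, Ctsd, Ctsl, Glb1 and Lamp1, of which 5 were higher and 1 lower in CML 2wk by the test given below, while 7 of the 22 genes without the letters were higher and 7 lower. Over all genes tested 30.6% were higher and 29% lower. The rises of Lamp1 and Atg3 were lost under some other settings (below). The lower gene with the letters was Atg7 (−0.41), whereas Lamp2 rose (1.26) without them. A relation between the letters and the direction of change was not tested. The windows below were picked by motif and by size of change, so they cannot show such a relation. Windows are shown for the 3 genes with TCACGTGA (Atg3, chr16:45158579-45158878, plus strand; Ctsd, chr7:142387778-142388077, minus strand; Ctsa, chr2:164833523-164833822, plus strand), for Lamp1 with 4 copies of CACGTG (chr8:13158911-13159210, plus strand), for Ctsl, which had the largest rise (chr13:64370471-64370770, minus strand), and for Ulk1, which had the largest fall and holds none (chr5:110810032-110810331, minus strand). Capitals mark every CACGTG and, where both are present, its flanking T and A, and each window reads 5′ to 3′ on the strand of the gene.
Atg3: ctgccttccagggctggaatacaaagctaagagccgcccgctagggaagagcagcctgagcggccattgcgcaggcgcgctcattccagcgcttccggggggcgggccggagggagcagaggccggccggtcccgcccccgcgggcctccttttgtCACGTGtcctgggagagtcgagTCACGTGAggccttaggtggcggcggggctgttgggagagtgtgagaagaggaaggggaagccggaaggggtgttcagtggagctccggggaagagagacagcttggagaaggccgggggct
Ctsd: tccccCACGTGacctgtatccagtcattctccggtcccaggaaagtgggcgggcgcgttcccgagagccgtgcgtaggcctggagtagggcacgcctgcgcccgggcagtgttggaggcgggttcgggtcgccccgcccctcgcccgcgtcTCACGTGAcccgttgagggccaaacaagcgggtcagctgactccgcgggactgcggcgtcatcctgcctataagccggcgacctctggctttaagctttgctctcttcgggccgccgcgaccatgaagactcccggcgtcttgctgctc
Ctsa: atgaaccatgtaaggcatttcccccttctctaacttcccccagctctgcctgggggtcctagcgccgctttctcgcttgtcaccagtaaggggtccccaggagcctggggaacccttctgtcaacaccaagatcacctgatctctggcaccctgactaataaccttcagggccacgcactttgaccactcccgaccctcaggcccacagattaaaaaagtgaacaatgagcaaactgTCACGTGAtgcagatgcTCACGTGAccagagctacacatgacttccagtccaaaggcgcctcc
Lamp1: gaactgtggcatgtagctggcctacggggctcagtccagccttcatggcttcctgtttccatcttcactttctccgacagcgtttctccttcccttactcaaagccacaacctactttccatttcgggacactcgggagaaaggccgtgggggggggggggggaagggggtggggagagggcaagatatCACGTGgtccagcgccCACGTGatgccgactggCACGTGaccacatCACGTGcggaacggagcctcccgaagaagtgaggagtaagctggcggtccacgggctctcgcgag
Ctsl: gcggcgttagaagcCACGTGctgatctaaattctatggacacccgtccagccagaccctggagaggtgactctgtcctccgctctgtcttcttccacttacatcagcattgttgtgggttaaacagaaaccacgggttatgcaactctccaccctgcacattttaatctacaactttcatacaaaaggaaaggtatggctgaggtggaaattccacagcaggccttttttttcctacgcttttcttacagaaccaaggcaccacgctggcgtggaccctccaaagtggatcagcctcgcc
Ulk1: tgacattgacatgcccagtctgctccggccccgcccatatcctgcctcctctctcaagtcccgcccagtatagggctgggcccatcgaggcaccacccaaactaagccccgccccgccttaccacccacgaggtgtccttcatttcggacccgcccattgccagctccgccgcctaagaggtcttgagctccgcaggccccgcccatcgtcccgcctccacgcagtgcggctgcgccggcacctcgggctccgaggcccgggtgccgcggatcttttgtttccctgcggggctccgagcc
The letters began 94 and 71 bases before the start of Atg3, 245 and 98 bases before that of Ctsd and 236 bases before that of Ctsl. In Lamp1 the 4 copies lay 61, 45, 28 and 15 bases before the start. A match describes the letters of the window and not binding.

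Of the 38 genes, 14 were higher and 10 were lower in CML 2wk in the edgeR fit (quasi-likelihood test, p adjusted by Benjamini-Hochberg over 18438 genes), and 14 did not pass the threshold of 0.05. Changes were frequent across the genome, where 59.5% of genes tested were called (30.6% higher and 29% lower), so that a share of 63.2% (24 of 38) called is not in itself a result about these genes. The groups of libraries did not overlap for 19 of the 38, with CML 2wk above CTRL in 10 (26.3%, against 17% of all genes tested) and below in 9 (23.7%, against 20.6%). The median log2 fold change over the 38 was −0.02, beside 0.07 over all genes tested. Levels spread more between CML 2wk libraries, with a larger coefficient of variation than in CTRL for 37 of the 38 (median of 19% in CML 2wk and 6.83% in CTRL), as it was for 91.1% of all genes tested (medians of 21.1% and 10.1%). Of the 24 called genes, 18 held their call and direction in each of 23 other ways of testing. Libraries 6 of both groups carry library numbers close to each other, apart from those of libraries 1 to 5, and the log2 ratio of these 2 libraries had the same sign as the log2 fold change for 24 of the 24 called genes. That agreement is no separate check, since both libraries are in the fit that gave the calls. For the 19 genes without overlap any such pair must have this sign.

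**Figure D1:**
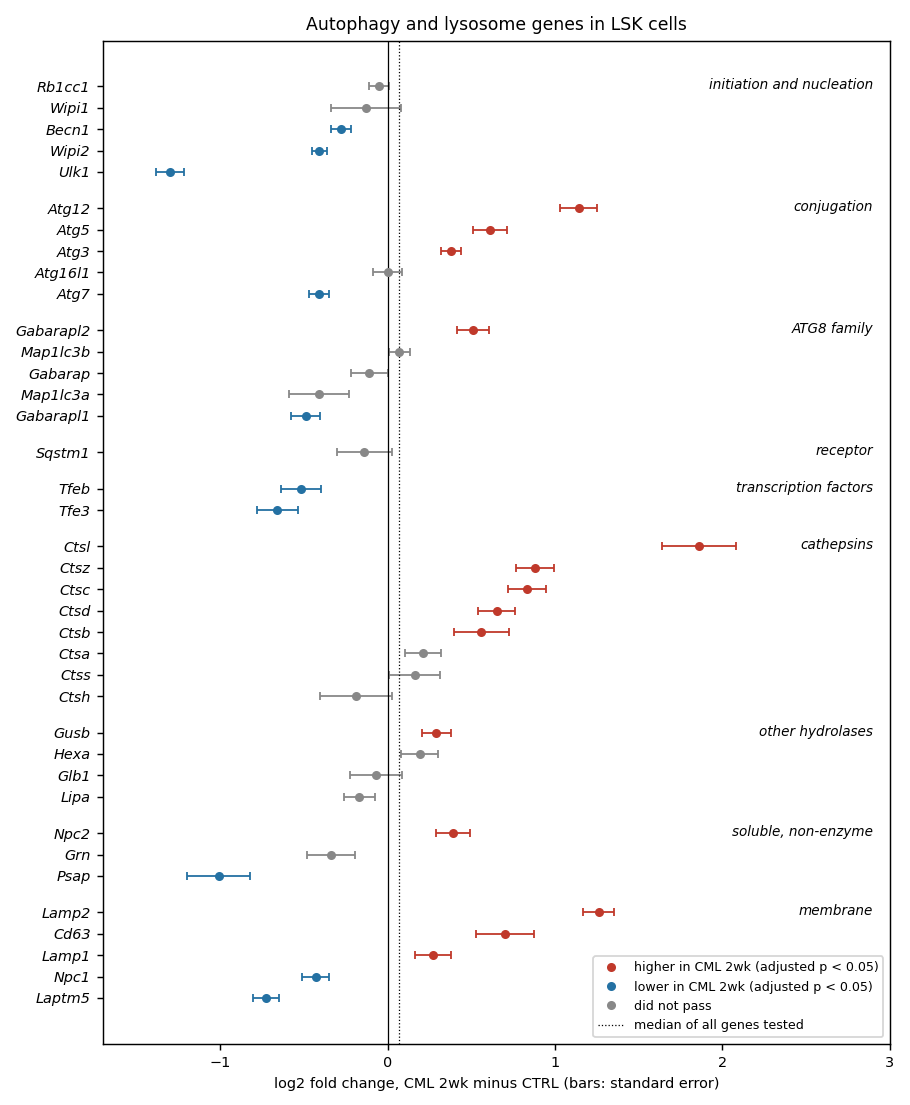
Log2 fold change (CML 2wk minus CTRL) of the 38 genes by role, with bars for the standard error; red and blue mark genes with an adjusted p under 0.05 that were higher or lower, grey the others, and the dotted line is the median of all genes tested (0.07). The cathepsins Ctsl, Ctsz, Ctsc, Ctsd and Ctsb lie to the right, Ulk1, Tfeb and Tfe3 to the left.

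Among the 16 autophagy core genes, 4 were higher and 5 lower in CML 2wk (25% and 31.2%, 56.2% in all), near the shares over all genes tested (30.6%, 29% and 59.5%), with a median log2 fold change of −0.12. The 5 genes of initiation and nucleation held 3 of the falls and no rise, and 3 of the 5 conjugation genes rose and 1 fell. With the length trend removed (below) initiation and nucleation held 1 rise and 2 falls and conjugation 4 rises and 1 fall. With the GC trend removed initiation and nucleation held 4 falls and no rise, and conjugation 2 rises and 1 fall. Their levels summed to 435.1 to 457 CPM in CTRL and 314.6 to 374 in CML 2wk for initiation and nucleation, and to 232.5 to 247 and 293.6 to 393 CPM for conjugation, without overlap in either case. The summed level of all 16 overlapped (1012 to 1083 CPM in CTRL, 933.5 to 1110.2 in CML 2wk).

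Ulk1, the kinase that starts autophagosome formation, was at 82.3 to 102 CPM in CTRL (median 90.3) and at 31.2 to 42.3 CPM in CML 2wk (median 37.9). All 6 CML 2wk libraries lay below every CTRL library, with a wide gap between the groups. Its log2 fold change was −1.30 ± 0.0841 (SE, n = 6 libraries per group, adjusted p = 3.81e-08). Becn1, the Beclin 1 subunit of the lipid kinase complex, changed by −0.28 ± 0.0619 on the log2 scale (adjusted p = 0.00122). Wipi2, which reads the lipid mark, changed by −0.41 ± 0.0444 (adjusted p = 2.14e-06). Rb1cc1, the scaffold of the ULK1 complex also called FIP200, had a log2 fold change of −0.05 ± 0.0597 (adjusted p = 0.526). Wipi1, a relative of Wipi2, was lower in 5 CML 2wk libraries (9.11 to 11.3 CPM) than in any CTRL library (12.5 to 16.1 CPM), and library 2 was at 23.6 CPM. Its log2 fold change was −0.13 (adjusted p = 0.596) over all libraries and −0.43 (adjusted p = 0.00145) without CML 2wk library 2.

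The conjugation genes moved both ways. Atg12, the ubiquitin-like protein joined to ATG5, was at 58 to 66.2 CPM in CTRL (median 61) and 99.7 to 175 CPM in CML 2wk (median 138), a log2 fold change of 1.14 ± 0.111 (adjusted p = 8.29e-07). Library 5 was the lowest CML 2wk library and still above all of CTRL, and library 6 was the highest. Atg5, its partner, was at 30.1 to 33.2 CPM in CTRL (median 31.4) and 38.1 to 63.9 CPM in CML 2wk (median 46.2). Its log2 fold change was 0.61 ± 0.102 (adjusted p = 0.000129), again with library 5 lowest and library 6 highest and without overlap between groups. Atg3, the E2-like enzyme that passes ATG8 proteins to lipid, had a log2 fold change of 0.38 (adjusted p = 7.07e-05). Atg7, the E1-like enzyme of both reactions, had one of −0.41 (adjusted p = 4.59e-05). Atg16l1, which carries the ATG12-ATG5 conjugate to the membrane, stood at a mean of 53 CPM in both groups.

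The ATG8 family was split as well. Gabarapl2 was at 24.1 to 27.9 CPM in CTRL (median 25.2) and 29.6 to 44.2 CPM in CML 2wk (median 34.9), so that all CML 2wk libraries lay above CTRL, library 2 nearest to it. The log2 fold change was 0.51 ± 0.0955 (adjusted p = 0.000351). Gabarapl1 fell, with a log2 fold change of −0.49 ± 0.0856 (adjusted p = 0.000181). Gabarap (−0.11), Map1lc3b (0.07) and Map1lc3a (−0.41, adjusted p = 0.0657) did not pass. Map1lc3a was measured at 2.03 to 4.47 CPM only, and it passed without CML 2wk library 1 (−0.49, adjusted p = 0.0338) or library 2 (−0.50, adjusted p = 0.0232). The receptor Sqstm1 was at 84.9 to 99.6 CPM in CTRL (median 93.5) and at 61.7 to 140.3 CPM in CML 2wk (median 78.4). Library 2 held the highest value, and CML 2wk libraries 3, 4, 5 and 6 were below every CTRL library. The log2 fold change was −0.14 ± 0.163 (adjusted p = 0.486) with all libraries and −0.35 (adjusted p = 0.00458) without CML 2wk library 2. Without that library 8 autophagy core genes were lower in place of 5, and 4 higher as before, where 64.3% of all genes were called (31.8% lower and 32.5% higher).

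Tfeb and Tfe3 were both lower in CML 2wk. Tfeb was at 13.9 to 17.8 CPM in CTRL (median 16) and at 8.88 to 13.4 CPM in CML 2wk (median 10.7), with a log2 fold change of −0.52 ± 0.12 (adjusted p = 0.00167). The groups did not overlap, but CML 2wk library 5 came close to the lowest CTRL library. Tfe3 was at 28.2 to 30.7 CPM in CTRL (median 29.1) and at 13 to 23.2 CPM in CML 2wk (median 18.8). Its groups were apart by a wider margin, and the log2 fold change was −0.66 ± 0.123 (adjusted p = 0.000335). These are transcript levels, while the known control of both factors by mTORC1 acts on the protein. The other members of their family, Mitf and Tfec, were higher in CML 2wk, Tfec from 28.9 ± 2.25 to 92.8 ± 39.4 CPM (SD; log2 fold change 1.68 ± 0.21, adjusted p = 8.32e-06) and Mitf from 10.3 ± 1.14 to 16.2 ± 6.17 CPM (0.65 ± 0.187, adjusted p = 0.00766, and 0.40 without CML 2wk library 2). MITF is a factor of mast cells as well. The basophil and mast cell genes rose in these libraries (above), and their part in the level of Mitf was not tested. The fork-head factors Foxo3 (−1.31), Foxo4 (−1.26) and Foxo1 (−0.88), which drive autophagy genes in other settings, fell.

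**Figure D2:**
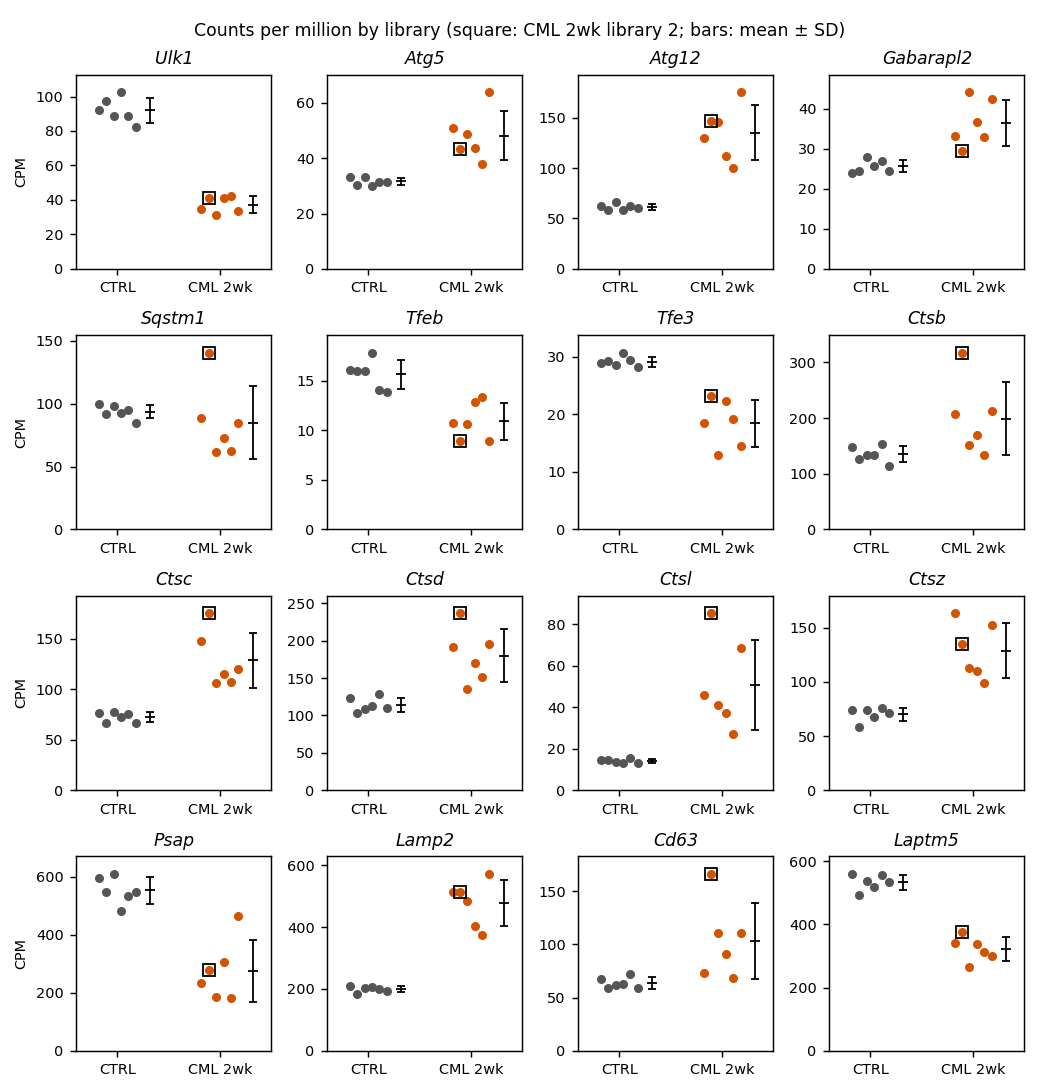
CPM in each library for the 15 genes with an adjusted p under 0.05 and an absolute log2 fold change of at least 0.5, and for Sqstm1; points are libraries, bars the mean ± SD of 6, and the square marks CML 2wk library 2. Groups overlap for Sqstm1, Ctsb and Cd63 only, and library 2 is the highest point for Sqstm1, Ctsb, Ctsc, Ctsd, Ctsl and Cd63.

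Of the 20 lysosomal genes, 10 were higher and 3 lower in CML 2wk (50% and 15%, beside 30.6% and 29% of all genes tested), with a median log2 fold change of 0.24. The 8 cathepsins among them held 5 of the 10 rises and no fall (62.5% higher, beside 30.6% of all genes tested). The summed level of these 8 was 495.3 to 584 CPM in CTRL and 640.5 to 1132 CPM in CML 2wk, without overlap. Cathepsins of the wider lists did not share the rise. Ctsf (−1.41) fell, as did Ctso (−0.43, adjusted p = 0.000137 in the edgeR fit), named after its values were seen. Ctsw (−0.11) did not pass, and Ctsk was not tested. Within the CML 2wk group, library 2 was the highest for 12 of the 20 genes and library 5 the lowest for 11.

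Ctsl, a cysteine protease, was at 12.9 to 15.6 CPM in CTRL (median 14) and at 27 to 85.3 CPM in CML 2wk (median 43.6). Even the lowest CML 2wk library (5) was above all CTRL libraries, and the rise was the largest of the 38 genes, with a log2 fold change of 1.86 ± 0.224 (adjusted p = 6.03e-06). Ctsz, a cysteine carboxypeptidase, was at 58.6 to 75.6 CPM in CTRL (median 72.4) and at 98.9 to 163 CPM in CML 2wk (median 124), with a log2 fold change of 0.88 ± 0.115 (adjusted p = 1.33e-05). Ctsc, which activates the serine proteases of granules, was at 66.4 to 77.1 CPM in CTRL (median 74.1) and 106 to 175 CPM in CML 2wk (median 118). The log2 fold change was 0.83 ± 0.114 (adjusted p = 2.21e-05). All 6 CML 2wk libraries lay above CTRL for these 3 genes. Elane, Prtn3 and Ctsg, which encode such proteases, were among the 6 granulocyte progenitor genes that rose, and their part in the level of Ctsc was not tested.

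Ctsd, the main aspartic protease of the lysosome, was at 103 to 128 CPM in CTRL (median 112) and at 136 to 237 CPM in CML 2wk (median 181), again without overlap (log2 fold change 0.65 ± 0.113, adjusted p = 0.000166). Ctsb, a cysteine protease, was at 114 to 153.5 CPM in CTRL (median 134) and at 134 to 317 CPM in CML 2wk (median 188). CML 2wk libraries 3 and 5 overlapped with CTRL, library 2 was the highest, and the log2 fold change was 0.56 ± 0.167 (adjusted p = 0.00987) with and 0.37 (adjusted p = 0.011) without library 2. Ctsa (0.21), Ctss (0.16) and Ctsh (−0.19) did not pass. Ctsa passed without CML 2wk library 3 (0.26, adjusted p = 0.048).

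The other hydrolases moved little. Gusb, β-glucuronidase, was higher with a log2 fold change of 0.29 ± 0.0859 (adjusted p = 0.00861), and the call was lost without the filter on low counts (0.22, adjusted p = 0.0587). Hexa, a β-hexosaminidase subunit, had 0.19 (adjusted p = 0.154) and passed without CML 2wk library 5 (0.27, adjusted p = 0.0227). Lipa, the acid lipase, had −0.17 (adjusted p = 0.119) and passed without CML 2wk library 1 (−0.24, adjusted p = 0.0278). Glb1, β-galactosidase, was at 51.1 to 63.4 CPM in 5 CML 2wk libraries and at 109.1 CPM in library 2, beside 61.5 to 77.4 CPM in CTRL. Its log2 fold change of −0.07 (adjusted p = 0.731) became −0.27 (adjusted p = 0.0054) without CML 2wk library 2.

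Psap, the precursor of the saposins that help break down sphingolipids, was the largest fall among the lysosomal genes. It was at 480.5 to 608 CPM in CTRL (median 548) and at 180.1 to 466 CPM in CML 2wk (median 256), and its log2 fold change was −1.01 ± 0.189 (adjusted p = 0.000341). CML 2wk library 6 was close to the lowest CTRL library, and the other CML 2wk libraries were at most at 304 CPM. Npc2, which takes cholesterol from the lumen, was higher (0.39 ± 0.104, adjusted p = 0.00517), whereas its partner in the membrane, Npc1, was lower (−0.43 ± 0.08, adjusted p = 0.000301). Grn, progranulin, had a log2 fold change of −0.34 ± 0.144 (adjusted p = 0.0562). It passed without CML 2wk library 2 (−0.51, adjusted p = 0.000215) or library 6 (−0.38, adjusted p = 0.0429), and with all libraries in DESeq2 (adjusted p = 0.0378), in limma voom (adjusted p = 0.013) and without the filter (adjusted p = 0.0239). With CML 2wk library 2 left out 5 lysosomal genes were lower and 9 higher (25% and 45%, beside 31.8% and 32.5% of all genes tested).

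Lamp2, an abundant membrane glycoprotein needed for fusion with autophagosomes and for chaperone-mediated autophagy, was at 183 to 209 CPM in CTRL (median 202) and at 374 to 571 CPM in CML 2wk (median 498). No CML 2wk library came near the CTRL range, and the log2 fold change was 1.26 ± 0.094 (adjusted p = 9.68e-08). Lamp1, its close relative, rose less (0.27 ± 0.105, adjusted p = 0.0355). This call was lost without CTRL library 2, 3, 4 or 6 or without CML 2wk library 1, 2 or 6, with log2 fold changes of 0.22 to 0.27, and without the filter on low counts (0.20, adjusted p = 0.153). Cd63, a tetraspanin of late endosomes and of mast cell and basophil granules, was at 58.6 to 72.3 CPM in CTRL (median 62.2) and at 68.4 to 166 CPM in CML 2wk (median 101). The groups overlapped through CML 2wk library 5, library 2 was the highest, and the log2 fold change was 0.70 ± 0.172 (adjusted p = 0.00288) with and 0.50 (adjusted p = 0.00157) without library 2. Laptm5, a lysosomal membrane protein of haemopoietic cells, was at 495 to 559.5 CPM in CTRL (median 536) and at 264 to 375 CPM in CML 2wk (median 324). All CML 2wk libraries were below CTRL, with a log2 fold change of −0.73 ± 0.0777 (adjusted p = 1.85e-06).

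Levels of different genes were compared per kilobase of exon (CPM per kb, exon lengths of GENCODE M21). In CTRL Psap (201 ± 16.9 CPM per kb, SD, n = 6) and Laptm5 (141 ± 6.42) were the most abundant of the 38, and Ctsl (2.17 ± 0.159) the least. In CML 2wk Psap was at 100.1 ± 38.4, Ctsz at 89.5 ± 17.7, Laptm5 at 84.8 ± 10.1 and Ctsd at 76.6 ± 15.2 CPM per kb, levels that do not differ beyond their SD, and Ctsl had passed from rank 38 to rank 27. Lamp2 went from rank 16 (20.9 ± 0.997) to rank 6 (49.9 ± 7.77), and Ulk1 from rank 19 (14.2 ± 1.1) to rank 30 (5.75 ± 0.723). Within the ATG8 family Gabarapl1 (41.4 ± 3.43) and Gabarap (39.6 ± 2.2) were the most abundant in CTRL, ahead of Map1lc3b (11.5 ± 0.723), Gabarapl2 (11 ± 0.653) and Map1lc3a (2.91 ± 0.486). Tfeb and Tfe3 were low in both groups (2.76 ± 0.254 and 3.15 ± 0.0949 in CTRL, 1.92 ± 0.335 and 1.99 ± 0.439 in CML 2wk).

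**Figure D3:**
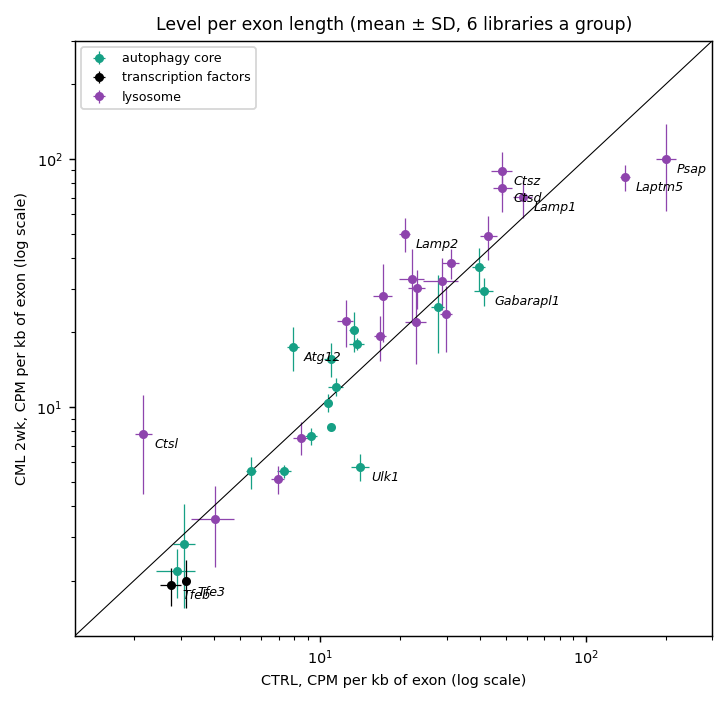
Level of the 38 genes in CTRL (x axis) and CML 2wk (y axis) in CPM per kb of exon on log scales, as the mean ± SD of 6 libraries; the line marks equal levels. Psap and Laptm5 are the highest in CTRL and lie below the line in CML 2wk, whereas Ctsl and Lamp2 lie above it.

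The fold change followed exon length across the genome. The median log2 fold change fell from 0.567 in the decile of genes with the shortest exons (up to 773 bases) to −0.267 in the decile with the longest (8858 bases and more). Each of the 24 called genes kept its sign after subtraction of the median of its own length class. Ctsl, Lamp2 and Atg12 rose although their class had negative medians (−0.17, −0.27 and −0.26), and Psap and Gabarapl1 fell against positive ones (0.18 and 0.30). When the length trend was removed from the counts of each library before the fit, 21 of the 24 calls were held. The calls of Becn1 (−0.04, adjusted p = 0.573), Npc1 (−0.14, adjusted p = 0.107) and Lamp1 (0.17, adjusted p = 0.192) were lost. The falls of Wipi2 (−0.13), Atg7 (−0.17) and Tfe3 (−0.40) and the rise of Ctsz (0.54) were smaller. Another 6 genes then passed, namely Rb1cc1 (0.27), Atg16l1 (0.27), Map1lc3b (0.33) and Ctsa (0.34) as higher and Gabarap (−0.37) and Map1lc3a (−0.77) as lower. The autophagy core then held 7 rises and 6 falls, and the lysosome 10 and 2, where 55.2% of all genes were called (28.4% higher and 26.8% lower). With the trend with GC content removed instead, 22 of the 24 calls were held, and those of Atg3 (0.06, adjusted p = 0.356) and Tfeb (−0.14, adjusted p = 0.321) were lost. Ctsa (0.40) and Hexa (0.41) then passed as higher, and Rb1cc1 (−0.41, adjusted p = 0.00065) and Lipa (−0.38) as lower. The call of Rb1cc1 thus had opposite directions with the length trend and with the GC trend removed. The counts were 3 and 6 for the autophagy core and 12 and 4 for the lysosome, where 57.6% of all genes were called (28.1% higher and 29.5% lower).

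**Figure D4:**
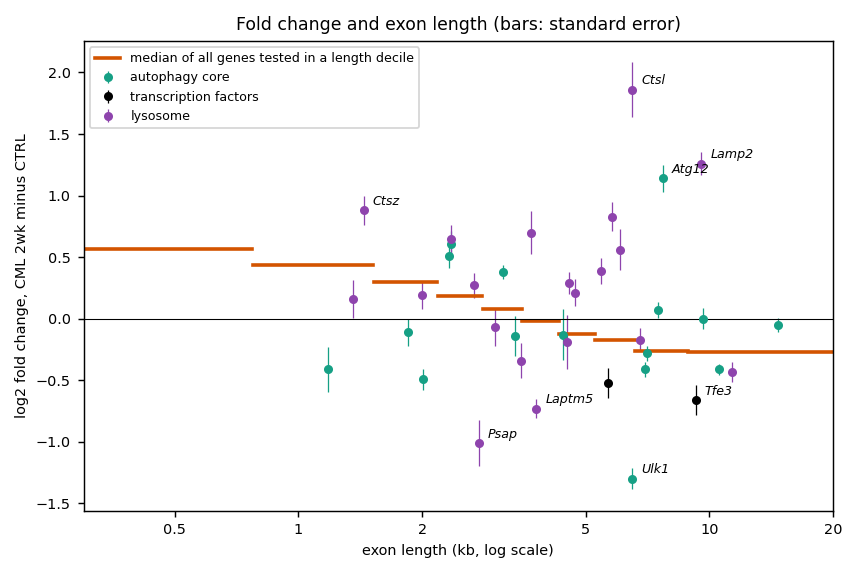
Log2 fold change (CML 2wk minus CTRL, bars for the standard error) of the 38 genes against exon length in kb on a log scale; orange lines are the medians of all genes tested in length deciles. The medians fall from 0.567 to −0.267, while Ctsl, Lamp2 and Atg12 lie far above and Ulk1, Psap and Laptm5 far below the line at their length.

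The wider pathway was covered by 8 lists with 163 other genes, of which 162 were tested, 47 (29%) were higher and 68 (42%) lower, beside 30.6% and 29% of all genes tested, with a median log2 fold change of −0.10. The counts were 43 and 57 with the length trend removed, and 57 and 65 with upper-quartile factors. The V-ATPase, the proton pump of the lysosome, had 11 of 17 genes higher and 4 lower (64.7% and 23.5%, beside the same 30.6% and 29%) and a median of 0.50. Atp6ap2, an accessory subunit, rose from 87.7 ± 6.7 to 199.6 ± 45.1 CPM (SD, n = 6; log2 fold change 1.19 ± 0.128, adjusted p = 2.17e-06), followed by Atp6v1g1 (0.85) and Atp6v0e (0.76). The membrane subunit isoforms Tcirg1 (−0.82) and Atp6v0a2 (−0.41) fell, as did Atp6v1d (−0.43). With the length trend removed 10 were higher and 3 lower.

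Among 24 other genes of the autophagy machinery 6 were higher and 11 lower (25% and 45.8%, beside 30.6% and 29% of all genes tested), and 6 and 8 with the length trend removed. Rubcn, an inhibitor of autophagosome maturation (−1.14 ± 0.0615, adjusted p = 1.71e-08), Atg2a, a lipid transfer protein (−1.09), and Ulk2, the relative of Ulk1 (−0.83), had the largest falls, and Atg4a, a protease that trims ATG8 proteins (0.85), Vmp1 (0.55) and Atg10, the E2-like enzyme for ATG12 (0.49), the largest rises. Atg10 did not pass with the length trend removed (0.20, adjusted p = 0.126). Of 15 autophagy receptors 5 were higher and 6 lower (33.3% and 40%), with the largest rises in Bnip3 (0.96), Phb2 (0.85) and Bnip3l (0.40) and the largest falls in Calcoco1 (−1.24), Optn (−0.97) and Nbr1 (−0.78). Receptors of mitochondria were found on both sides, Optn among the falls. The genes of fusion with the lysosome (SNAREs, tethers and the HOPS complex) included 8 of 14 lower and 1 higher (57.1% and 7.14%, beside 29% and 30.6%). Epg5 (−0.81), Vps39 (−0.69) and Vps16 (−0.68) fell the most, and Vamp8 (0.43) was the gene that rose. With the length trend removed 6 were lower.

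Of 33 other hydrolases tested 9 were higher and 14 lower (27.3% and 42.4%, beside 30.6% and 29% of all genes tested), but 10 and 10 with the GC trend removed and 13 and 13 with upper-quartile factors. Gla, α-galactosidase, rose from 9.24 ± 0.646 to 30.3 ± 6.63 CPM (log2 fold change 1.71 ± 0.137, adjusted p = 1.62e-07), and Neu1, a sialidase that is held in a complex by cathepsin A, by 0.95. Acp5 had 1.61 with all libraries and 0.63 without CML 2wk library 2. Ctsf, another cathepsin, fell from 7.85 ± 1.07 to 2.95 ± 0.595 CPM (−1.41 ± 0.162, adjusted p = 3.95e-06), along with Idua (−0.73) and Sgsh (−0.72). Other membrane proteins were 7 higher and 10 lower of 26 (26.9% and 38.5%), and 10 and 10 with upper-quartile factors, among them Mfsd8 (0.71) and Tmem192 (0.56) up, and Cln3 (−0.87), the calcium channel Tpcn1 (−0.87) and Igf2r (−1.16) down. Igf2r is 1 of 2 mannose 6-phosphate receptors that bring hydrolases to the lysosome. The other, M6pr, which was named after its values were seen, rose from 219.7 ± 19.5 to 311 ± 44.5 CPM (0.50, adjusted p = 0.000427). The genes around mTORC1 were 6 higher and 12 lower of 26 (23.1% and 46.2%, beside 30.6% and 29%). Sesn3, a sestrin (−1.20 ± 0.115, adjusted p = 7.59e-07), and Tsc1 (−1.12) and Tsc2 (−0.92), whose complex switches off RHEB, fell, while Rheb itself (0.46), Lamtor5 of the Ragulator complex (1.03) and Rraga (0.42) rose. The subunits of mTORC1 itself, named after their values were seen, fell too, with Mtor at −0.55 (adjusted p = 4.54e-07), Rptor at −0.50 (adjusted p = 1.05e-06) and Mlst8 at −0.48 (adjusted p = 0.000211). Rraga did not pass with the length trend removed (0.11, adjusted p = 0.315). Among the 7 related transcription factors 2 were higher and 3 lower (above).

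**Figure D5:**
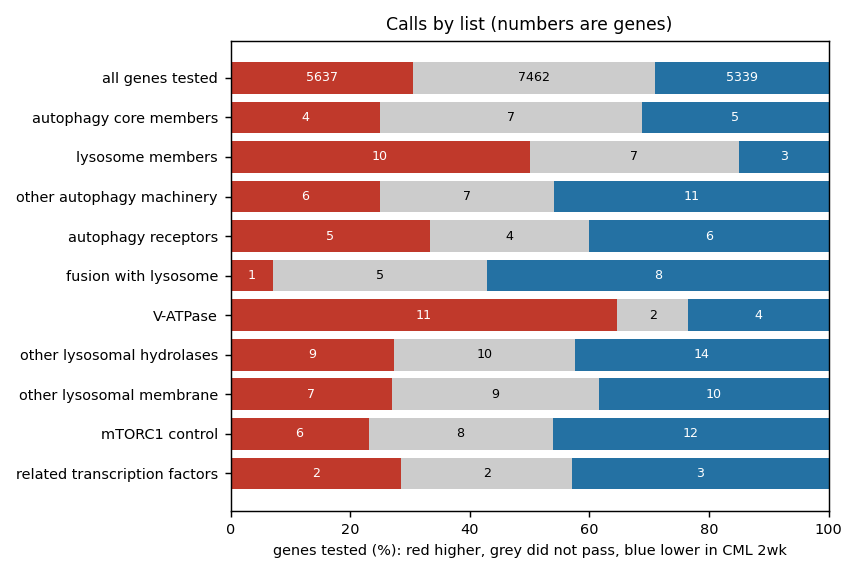
Share of genes tested that were higher (red), lower (blue) or did not pass (grey) in CML 2wk, for all genes, the 2 groups of members and the 8 wider lists; numbers in the bars are genes. The V-ATPase (11 of 17) and the lysosomal members (10 of 20) have the largest shares of higher genes, and fusion with the lysosome (8 of 14) has the largest share of lower ones.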

How the data were processed

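Raw counts per Ensembl gene were deposited by the authors for 12 libraries and used as such. The submitters' processing notes name fastp 0.23.2, STAR 2.7.10a, featureCounts 2.0.1 and GRCm39, whereas the methods name Trim Galore!, HISAT2 and a human build. The strand setting is not given in the sources used here. Counts of genes with exons overlapping a gene on the opposite strand (Ctsz with Nelfcd, Npc1 with Rmc1, Ctsb with Fdft1) are therefore uncertain. Tmppe overlaps Glb1 on the same strand, so the counts of Glb1 are uncertain under any strand setting. Symbols were matched by identifier (52073 of 56748). Counts were filtered with filterByExpr, scaled by TMM and tested with edgeR 4.0.16 in R 4.3.3 over 18438 genes, with Benjamini-Hochberg adjustment at 0.05; CPM values are TMM-scaled. DESeq2 1.42.0, limma 3.58.1 (voom), other scalings and filters, a replicate block and left-out libraries were alternatives, and removal of length and GC trends and of CML 2wk libraries 2 and 4 together was added after seeing the data. No pair of libraries was within sampling noise (lowest chi-square per degree of freedom 4.07). In simulated counts for this comparison (18196 genes) edgeR called 29 of 67 genes changed 1.5-fold, 48 of 66 changed 2-fold, 59 of 64 changed 4-fold and 6 of 17999 unchanged genes. The simulation changed few genes and gave both groups the same dispersion. In the data 59.5% of genes were called, and the biological coefficient of variation was 10.9% in CTRL and 32.6% in CML 2wk. The simulated rates therefore do not give the power or error rate in these data. Members and lists were chosen with earlier results of these data known. Library values were given for genes with an adjusted p under 0.05 and an absolute log2 fold change of at least 0.5 and for Tfeb, Tfe3, Sqstm1 and Ulk1; of each wider list up to 3 genes per direction with the largest changes were named (1 such gene is not reported here), and markers were given as lists.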

Additional observations from a re-analysis of the deposited data

Results flagged for a closer look

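In 76 sets of 6 libraries (38 genes in 2 groups), the highest or lowest library was tested for a gap to its nearest neighbour that is large for the range of the group, and 4 sets had one; chance gives about 1 in 20 groups, or 3.8 here. Wipi1 was at 23.6 CPM in CML 2wk library 2, with the next library at 11.3 CPM, and at 16.1 CPM in CTRL library 4, with the next at 13.5 CPM. Sqstm1 was at 140.3 CPM in CML 2wk library 2 and at 88.6 CPM in the next library. Glb1 was at 109.1 CPM in CML 2wk library 2 and at 63.4 CPM in the next. The 3 values of CML 2wk library 2 belong to the library with the highest stromal sum (2755 CPM), basophil and mast cell sum (2752 CPM) and, within CML 2wk, megakaryocyte sum (252 CPM), and their relation was not tested.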

How the results depend on the processing

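Of 874 log2 fold changes of single genes under the 23 alternatives, 821 kept both direction and side of the threshold, 30 passed newly, 17 no longer passed and 6 changed sign. The sign changes were Rb1cc1 with upper-quartile factors (0.03) and with the exon length trend removed (0.27), Ctss (−0.18), Hexa (−0.04) and Lipa (0.06) with the length trend removed, and Sqstm1 with the GC trend removed (0.03); only Rb1cc1 at 0.27 then passed. With single libraries left out, lower autophagy core genes numbered 5 to 8 and lower lysosomal genes 3 to 5, both highest without CML 2wk library 2; without CML 2wk libraries 2 and 4 they were 8 and 5. With the length trend removed 7 autophagy core genes were higher in place of 4. All other counts stayed within 1.5 times. With a replicate block 4786 genes were higher and 5189 lower, with 4 and 5 autophagy core and 9 and 4 lysosomal genes, since Lamp1 was lost (0.26, adjusted p = 0.0693) and Grn passed (−0.38, adjusted p = 0.0423); the numbers do not pair the libraries, since deviations of same-numbered libraries correlated at −0.125 to 0.068 and 1 of 6 CTRL libraries correlated best with its own number. Upper-quartile factors gave 6352 higher and 4752 lower genes. The causes were not tested. A count of 3 corresponds to 0.0717 to 0.1857 CPM, below every value given for the 38 genes; such limits cover counting error only.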
